A study of Mus musculus with 211 samples.

Results

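Splicing and hnRNP genes were taken as the protein-coding genes whose symbols begin with *Hnrnp*, *Srsf*, *Snrp*, *Sf3a* or *Sf3b*. The rule found 52 genes among the 48709 genes of the count table, of which 20 were *Hnrnp*, 11 *Srsf*, 12 *Snrp* and 9 *Sf3a* or *Sf3b* genes. Another 5 entries matched the names but were processed pseudogenes and were left out. The cells came from cochleae of CD1 mice carrying the *Lfng*-EGFP transgene, which places EGFP under *Lfng* regulatory sequences, with no treatment and no second genotype. GFP+ cells were sorted by FACS and captured singly on the Fluidigm C1, a microfluidic chip that makes full-length cDNA from each cell without molecular identifiers. The P60 cells came from 8 captures and the P120 cells from 4, and each capture pooled several mice, so the capture was taken as the replicate. Of the 211 cells, 164 had at least 50000 reads on genes, 80 at P60 and 84 at P120, and all values below are from these cells.

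Precursor mRNAs are packaged by hnRNP proteins as they are made, and these abundant RNA-binding proteins often block or redirect splice sites. SR proteins, encoded by the *Srsf* genes, bind exons through RNA recognition motifs and recruit the spliceosome through their arginine- and serine-rich tails. The small nuclear ribonucleoproteins (snRNPs) carry the spliceosome's RNAs inside a ring of Sm proteins, and the SF3A and SF3B complexes belong to the U2 snRNP, which holds the branch point of the intron. Most of these genes are used by every nucleated cell, while mature neutrophils are known for compact, segmented nuclei and a low RNA content.

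The labels call the cells adult cochlear supporting cells, and the markers went against this. *Ptprc*, the pan-leukocyte gene CD45, had a read in 157 of the 164 cells, and *S100a8*, an abundant neutrophil gene, in 164. Of the 15 supporting cell genes, *Cd9*, which leukocytes also express, had a read in 141 cells, *Lfng* itself in 112, *S100a1* in 68, *Tectb* in 40, and *Otog*, *Slc1a3* and *Sparcl1* in 18 each. The other 8 had a read in at most 6 cells, with *Sox2* in 4, *Fgfr3* in 1 and *Epyc* in 1. At least 3 of 10 leukocyte genes reached 10 reads in 161 cells, and at least 3 of the 15 supporting cell genes in 30 cells. The 12 neutrophil genes took 16% of all reads on genes and the 15 supporting cell genes 0.101%, with a range over P60 captures from 0.00602 to 1.90%. The cells are therefore named here by the genes that divide them. *Elane* and *Mpo* encode enzymes of the primary granules, which are made early in granulocyte development, and *Il1b* encodes a cytokine of activated myeloid cells. With at least 10 reads as positive, 38 cells were *Elane*/*Mpo*-positive, 78 were *Il1b*-positive, 20 were both and 28 neither. The first class held 15 cells at P60 and 23 at P120, and the second 35 and 43. The cells held 64947 to 5361476 reads on genes each (median 1080022).

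Promoter sequences are shown first for 4 genes at opposite ends of the results, chosen after their values were seen. *Srsf1* and *Hnrnpa1* were nearly absent from *Il1b*-positive cells, whereas *Sf3b1* and *Srsf5* were seen in most of them. Each stretch is the 100 bases before the RefSeq start in GRCm38.p6, 5′ to 3′ on the gene's strand, with any match on either strand in capitals. The motifs searched were the CCAAT box, the letters CGGAAG, and the TATA box as TATAAA.
*Srsf1*, chr11:88047273-88047372, plus strand: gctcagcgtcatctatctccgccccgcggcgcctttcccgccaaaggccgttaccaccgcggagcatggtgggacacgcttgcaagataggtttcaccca
*Hnrnpa1*, chr15:103240297-103240396, plus strand: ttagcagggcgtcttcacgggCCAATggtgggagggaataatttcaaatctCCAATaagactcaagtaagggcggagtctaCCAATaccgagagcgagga
*Sf3b1*, chr1:55027479-55027578, minus strand: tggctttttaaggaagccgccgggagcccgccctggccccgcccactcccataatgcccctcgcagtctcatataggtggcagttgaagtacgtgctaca
*Srsf5*, chr12:80945399-80945498, plus strand: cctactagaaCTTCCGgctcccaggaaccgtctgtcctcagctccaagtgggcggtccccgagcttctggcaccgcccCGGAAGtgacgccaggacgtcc
RefSeq promoters were matched for 46 of the 52 genes. In the 250 bases before the start, CGGAAG or its reverse complement, the core letters bound by ETS factors, stood in 24 of 46 (52.2%) against 17.2% of 17485 protein-coding promoters. CCAAT stood in 45.7% against 36.3% and TATAAA in 10.9% against 12.4%. The median ratio of observed to expected CpG was 0.872 in the 46 promoters and 0.536 in all, so these 46 promoters, which held the CG-containing motif more often, were also richer in CpG. CGGAAG stood within 250 bases of *Sf3b1* and *Srsf5* and not of *Srsf1* and *Hnrnpa1*. It also stood there in *Snrpb2*, *Snrpa1* and *Snrpg*, which were seldom seen in *Il1b*-positive cells. These matches describe letters and not binding sites.

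Over the 164 cells the 52 genes took a median of 0.600% of the reads on genes, with quartiles at 0.253 and 1.08% and extremes at 0.00807 and 4.11%. After each cell was brought to 50000 reads by calculating the chance that a gene keeps at least 1 read, a median of 8.88 of the 52 genes was detected per cell, from 1.55 to 41.4. Cells differed more than the captures they came from, as the plot of shares by capture shows. The number of these genes detected followed the number of all genes detected (Spearman's rho 0.929 over 164 cells, which share captures and base the 2 counts on the same reads). The share of reads followed it less closely (rho 0.519) and had a rho of 0.153 with the reads per cell.

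**Figure D1:**
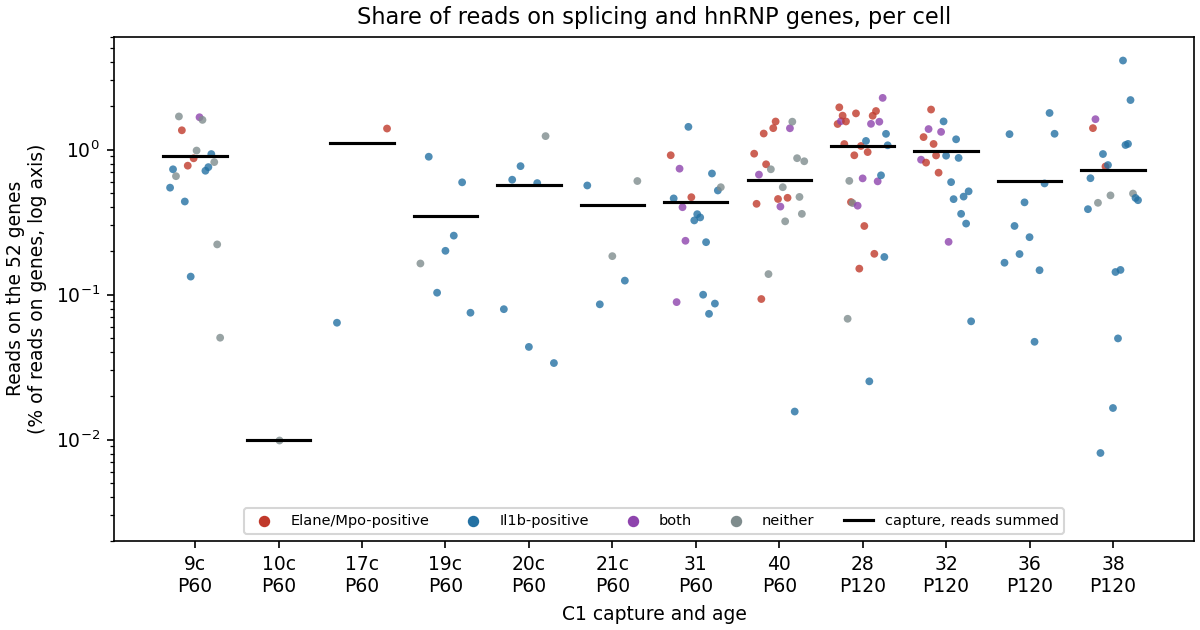
Share of reads on the 52 splicing and hnRNP genes in each of the 164 cells (points, percent of reads on genes, log axis) by C1 capture and age, coloured by class, with the share over the summed reads of each capture as a black line. Cells of 1 capture spread over more than a factor of 10 in most captures, and captures 10c and 17c hold 1 and 2 cells.

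The hnRNP genes held 54.2% of the reads on the 52 genes, the SR protein genes 22.2%, the SF3A and SF3B genes 15.3% and the snRNP genes 8.36%. Per kilobase of merged exon the highest levels were those of *Hnrnpa2b1* (27550 reads per kb), *Hnrnpc* (25178) and *Hnrnpk* (22381), which encode core hnRNP proteins. They were followed by *Snrpb*, an Sm ring gene (20707), *Srsf5* (19445) and *Srsf2* (16400). Within the snRNP genes *Snrpe* (11638) and *Snrpg* (10204) came next, both also Sm ring genes, and within the SF3 genes *Sf3b1*, *Sf3b6* and *Sf3b2* led with 11631, 11384 and 7909 reads per kb. *Srsf7* reached 10911. All 52 genes had a read in at least 1 cell, but *Snrpn* and *Srsf12*, best known from neurons, had 2 reads each.

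The question for the classes was whether the splicing genes are used alike in *Elane*/*Mpo*-positive and *Il1b*-positive cells of the same capture. In captures 9c, 28 and 32, the captures with at least 3 cells of each class, the 52 genes took 1.004, 1.34 and 1.13% of the reads in *Elane*/*Mpo*-positive cells. The *Il1b*-positive cells gave 0.644, 0.613 and 0.669%. The classes did not overlap, and the mean within-capture difference was 0.515 ± 0.189 percentage points (SD, n = 3 captures). Another 4 captures held at least 1 cell of each class, and the share was again higher in *Elane*/*Mpo*-positive cells. It was 1.40 against 0.0639% in 17c, 0.705 against 0.400% in 31, 1.06 against 0.614% in 38 and 0.824 against 0.0156% in 40. In 17c and 40 the *Il1b* value was a single cell. The *Elane*/*Mpo* value was a single cell in 17c and came from 2 cells each in 31 and 38. Over the 7 captures the means were 1.07 ± 0.252% and 0.431 ± 0.282% (SD, n = 7), higher in 7 of 7.

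The number of genes detected at 50000 reads parted the classes further. In 9c, 28 and 32, *Elane*/*Mpo*-positive cells had a mean of 36.9, 26.5 and 27.4 of the 52 genes, and *Il1b*-positive cells 9.87, 11.9 and 8.32. The means over the captures were 30.3 ± 5.78 and 10.0 ± 1.81 (SD, n = 3). Over 7 captures they were 30.8 ± 4.84 and 7.22 ± 3.30 (SD, n = 7), with no overlap and a difference of the same sign in all 7. *Elane*/*Mpo*-positive cells showed more genes of every kind, 2589 ± 623 against 1192 ± 260 per cell at 50000 reads (SD, n = 3). Per 1000 genes detected, the splicing genes numbered 11.8 ± 0.576 against 8.51 ± 0.797, a within-capture difference of 3.27 ± 0.224 (SD, n = 3). No p-value is given for these sums, since the list was proposed with earlier results of these data known.

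**Figure D2:**
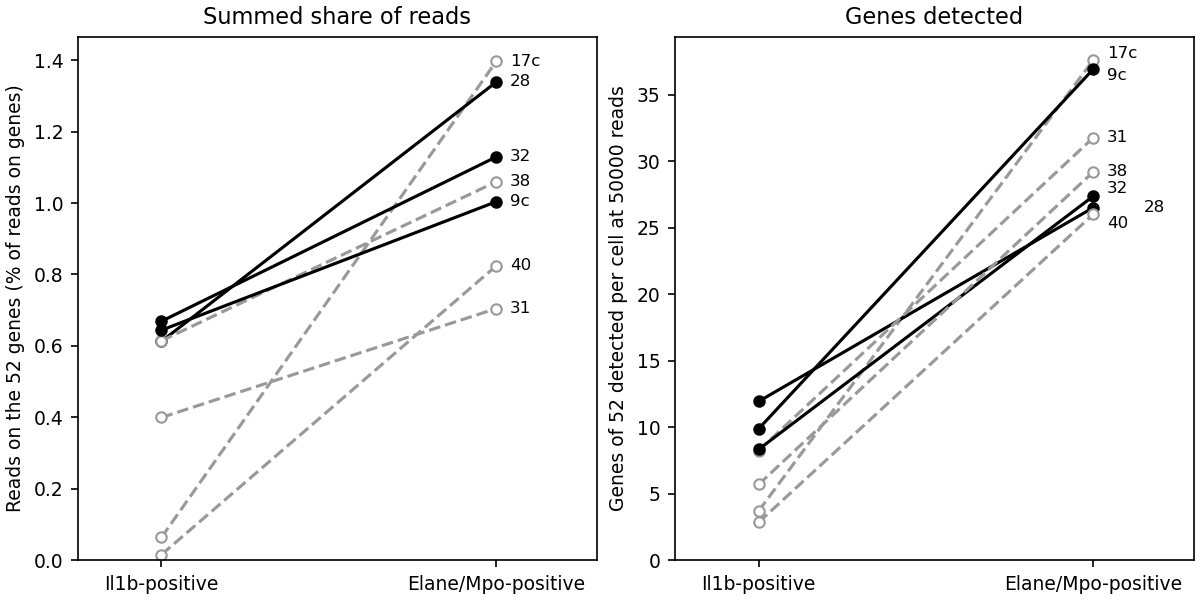
Share of reads on the 52 genes (left, percent of reads on genes) and mean number of them detected per cell at 50000 reads (right) in *Il1b*-positive and *Elane*/*Mpo*-positive cells, with a line for each capture. Solid lines are the captures with at least 3 cells of each class and dashed lines the other 4, and all 7 lines rise from *Il1b*-positive to *Elane*/*Mpo*-positive cells in both panels.

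The same division appeared in how the reads were spread over the genes within a cell. In *Il1b*-positive cells the most abundant of the 52 genes held a median of 57.5% of all their reads, and in *Elane*/*Mpo*-positive cells 19.1%. The leading gene held over 50% in 46 of 78 *Il1b*-positive and 3 of 38 *Elane*/*Mpo*-positive cells. Its median was higher in *Il1b*-positive cells in 7 of 7 captures, with capture values from 31.4 to 76.8% against 11.9 to 25.2%. The leading 3 genes together held medians of 93.9 and 38.9%. Which gene led varied from cell to cell. Among *Il1b*-positive cells 22 different genes led, *Srsf5* in 11 cells, *Hnrnpc* in 8 and *Hnrnpk*, *Hnrnpl* and *Sf3b1* in 7 each. The *Il1b*-positive cell with the highest share of all, 4.11% in capture 38, owed 50.3% of it to *Sf3b1*. Summed levels of *Il1b*-positive cells therefore rest on few cells for each gene, and a high capture value can be that of 1 cell.

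Depth, RNA quantity and marker genes of other cell types moved with the classes. The median reads on genes per cell were 1757880 ± 825926 in *Elane*/*Mpo*-positive and 606207 ± 267054 in *Il1b*-positive cells (mean of capture medians, SD, n = 3), although the detection values above are at equal depth. Spike-in RNA was present in quantity in capture 9c, where it took a median of 32.5% of gene and spike-in reads in *Elane*/*Mpo*-positive and 87.3% in *Il1b*-positive cells. The 10 cycling genes took 0.189 to 0.530% of the reads in *Elane*/*Mpo*-positive cells over the 7 captures and 0.000136 to 0.0915% in *Il1b*-positive cells. The summed reads of the 6 T and NK cell genes were also higher in 7 of 7, at 0.0503 to 0.305% against 0.000136 to 0.0101%. Over all cells most of these reads lay on *Nkg7*, which had a read in 38 of 38 *Elane*/*Mpo*-positive and 19 of 78 *Il1b*-positive cells. *Cd3d* had a read in 15 and 26 of these cells, *Cd3e* in 4 and 2, *Trac* in 4 and 1, and *Klrb1c* in 2 and 1. *Cd8a* had no read, so the sum does not show a rise of the list as a whole. The 6 basophil and mast cell genes reached 5.89% in *Elane*/*Mpo*-positive cells of a capture against at most 0.00227% in *Il1b*-positive cells. The neutrophil genes without *Il1b*, which defines a class, were lower in *Elane*/*Mpo*-positive cells in 6 of 7, at 3.62 to 19.9% against 6.47 to 31.2%. The part of these in the splicing gene result was not tested, and less RNA per cell and lower use of these genes cannot be told apart here.

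Gene by gene, detection was higher in *Elane*/*Mpo*-positive cells for 49 of the 49 members that had a read in at least 10 cells, where 86.4% of 10197 such genes were. It was over 50 percentage points higher for 18 of 49, where 3.97% of all genes were, and over 30 points higher for 38 of 49 against 15.1%. The median difference was 42.5 points for these members and 10.5 points for all genes. These values, and those of single genes below, were pooled over the 38 and 78 cells of the classes. The 38 cells came from 7 captures and the 78 from 11, so capture and class are mixed in them. Within captures, detection was higher in *Elane*/*Mpo*-positive cells in 7 of 7 for 37 of the 52 genes. That count was not made for all genes.

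**Figure D3:**
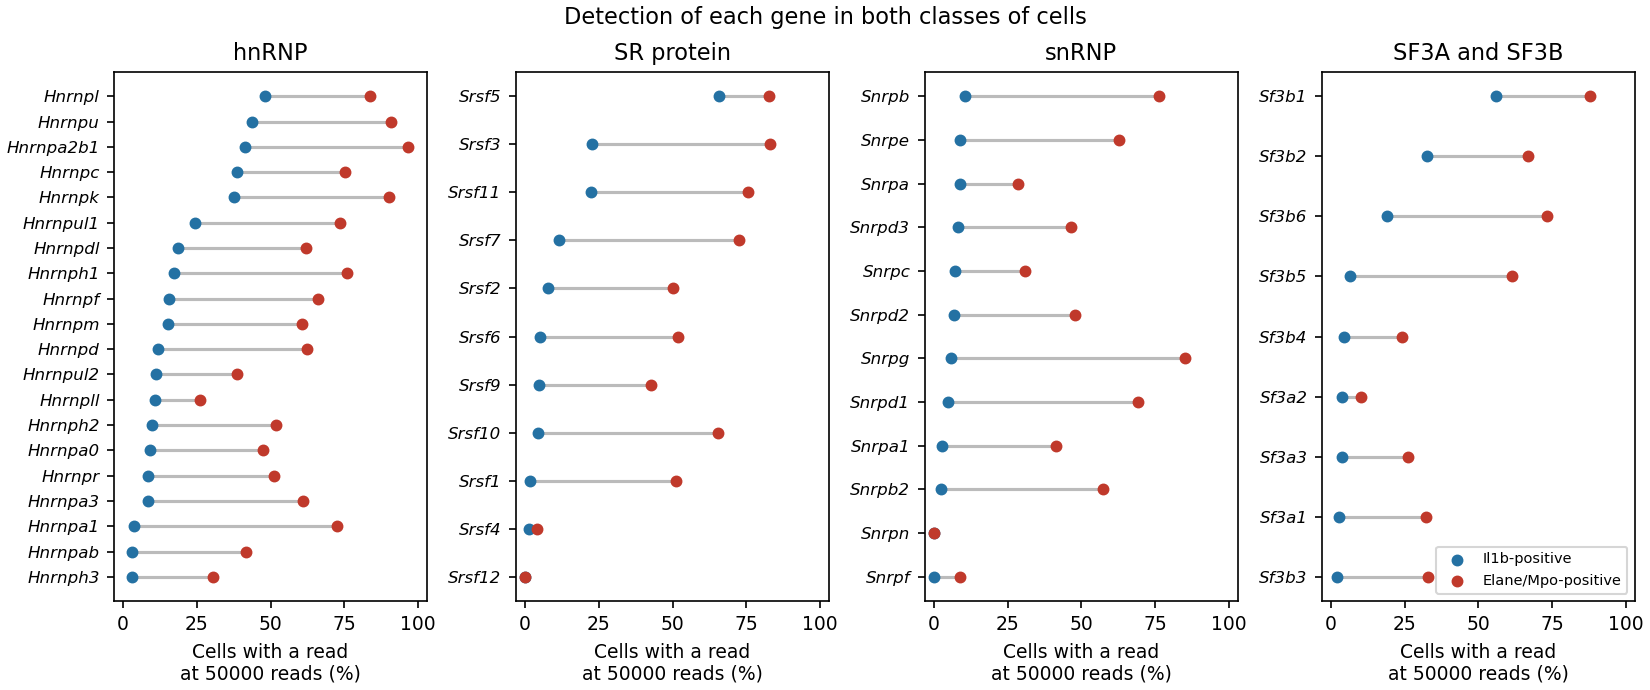
Percentage of cells in which each of the 52 genes had at least 1 read at 50000 reads, by gene family, in 78 *Il1b*-positive cells (blue) and 38 *Elane*/*Mpo*-positive cells (red), with genes ordered by the *Il1b*-positive value. In *Il1b*-positive cells 2 genes, *Srsf5* and *Sf3b1*, exceed 50% and 18 lie under 5%, whereas 32 exceed 50% in *Elane*/*Mpo*-positive cells. The *Il1b*-positive cells came from 11 captures and the *Elane*/*Mpo*-positive cells from 7.

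Among the hnRNP genes, 5 were seen in over 30% of *Il1b*-positive cells, and the family median there was 13.4% against 62% in *Elane*/*Mpo*-positive cells. *Hnrnpa2b1*, which binds and sorts RNAs in nucleus and cytoplasm, was seen in 96.5% of *Elane*/*Mpo*-positive and 41.2% of *Il1b*-positive cells. *Hnrnpu*, a nuclear scaffold protein, was seen in 90.9 and 43.8%, *Hnrnpk* in 90.1 and 37.6%, *Hnrnpl* in 83.9 and 48% and *Hnrnpc* in 75.3 and 38.6%. A high summed level did not always go with this, since *Hnrnpa0* (11413 reads per kb) was seen in 47.4 and 9.29% and *Hnrnph1* (10045) in 76.1 and 17.2%. *Hnrnpa1*, the antagonist of SR proteins at 5′ splice sites, was seen in 72.5 and 3.74%. Its summed level in *Elane*/*Mpo*-positive cells was 275, 628, 58.5, 318, 230, 132 and 91.1 CPM (reads on the gene scaled to a common total of gene reads) in 9c, 17c, 31, 40, 28, 32 and 38. Among *Il1b*-positive cells it was 2.48, 0, 0.0484, 0, 0.408, 0.0931 and 17.1 CPM in the same order. The lowest of the first class lay above the highest of the second. *Hnrnpk*, in contrast, had 759, 1659, 557, 501, 535, 629 and 912 CPM in *Elane*/*Mpo*-positive and 1519, 2.72, 752, 4.50, 336, 1232 and 371 CPM in *Il1b*-positive cells. Its levels overlapped, with *Elane*/*Mpo*-positive cells higher in 4 of 7 captures.

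Among the SR protein genes, *Srsf5* was seen in 82.6% of *Elane*/*Mpo*-positive and 65.6% of *Il1b*-positive cells, the highest *Il1b*-positive value of the 52 genes. Its CPM was 400, 87, 69.2, 375, 244, 547 and 55 in *Elane*/*Mpo*-positive cells of 9c, 17c, 31, 40, 28, 32 and 38, and 347, 0, 83.7, 3, 537, 618 and 671 in *Il1b*-positive cells. Neither class was steadily higher. *Srsf1*, the founding SR protein and a general splicing activator, was seen in 51.1 and 1.58% of the cells. Its *Elane*/*Mpo*-positive CPM was 277, 0, 147, 55.2, 145, 118 and 196, and its *Il1b*-positive CPM was 0, 0, 0, 0, 110, 0 and 0.0749. The value of 110 CPM, in capture 28, was the only *Il1b*-positive capture value of *Srsf1* above 1 CPM. *Srsf10*, a regulator of splicing under stress, was seen in 65.4 and 4.45% of the cells and was higher in 7 of 7 captures. *Srsf2*, an exonic enhancer binding protein, was seen in 50.2 and 7.89% and *Srsf7* in 72.4 and 11.6%. *Srsf2* reached 290 CPM in *Il1b*-positive cells of capture 38, against 4.35 CPM in the other class there.

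The snRNP genes were the only family whose share of reads did not overlap between the classes in the 7 captures. This share of reads was 0.126 ± 0.0354% against 0.0321 ± 0.0308% (SD, n = 3), and over the 7 captures it ranged from 0.0817 to 0.196% in *Elane*/*Mpo*-positive cells and from 0 to 0.0668% in *Il1b*-positive cells. The 7 Sm ring genes on the list were each seen in at most 10.7% of *Il1b*-positive cells, and in 8.74 to 85.3% of *Elane*/*Mpo*-positive cells. *Snrpg* led with 85.3 and 5.70%, ahead of *Snrpb* (76.2 and 10.7%), *Snrpd1* (69.2 and 4.80%) and *Snrpe* (62.8 and 8.90%). *Snrpd1* had 217, 292, 4.94, 140, 148, 193 and 115 CPM in *Elane*/*Mpo*-positive cells of 9c, 17c, 31, 40, 28, 32 and 38. The *Il1b*-positive sums were 17.7, 0, 0, 0, 0.136, 0.0931 and 0.0749 CPM. Every capture was higher in the *Elane*/*Mpo*-positive class, by the least in 31. The 4 genes of U1 and U2 particle proteins behaved alike in detection, at 28.5 to 57.2% against 2.55 to 8.76%. Of these *Snrpb2* and *Snrpa1*, partners that bind U2 RNA, were seen in 57.2 and 41.6% against 2.55 and 2.69% of the cells.

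The SF3A and SF3B genes differed least in their share, 0.166 ± 0.0201% against 0.135 ± 0.0229% (SD, n = 3), and the classes overlapped. Within captures the share was still higher in *Elane*/*Mpo*-positive cells in 3 of 3 and in 7 of 7. Most of the family's reads lay on *Sf3b1*, *Sf3b2* and *Sf3b6*. *Sf3b1*, the large scaffold of the complex that contacts the branch point, was seen in 87.9 and 56% of the cells. Its CPM was 285, 217, 317, 459, 1141, 1121 and 449 in *Elane*/*Mpo*-positive cells of 9c, 17c, 31, 40, 28, 32 and 38, and 689, 0, 130, 104.95, 540, 293 and 1048 in *Il1b*-positive cells. *Sf3b2* was lower in *Elane*/*Mpo*-positive cells in 9c, 28 and 32, with 128, 204 and 210 CPM against 655, 375 and 413 CPM. It was the only member lower in 3 of 3 captures, yet it was seen in more cells of the *Elane*/*Mpo*-positive class, 66.9 against 32.6%. The other subunits were seldom seen in *Il1b*-positive cells. *Sf3b5* was seen in 61.3 and 6.37%, *Sf3a1* in 32.2 and 2.74% and *Sf3b3* in 32.9 and 2.17% of the cells.

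Testing each gene over captures gave little at the level of single genes. With edgeR's quasi-likelihood test on the 3 captures with at least 3 cells of each class, 0 of 48 tested members passed an adjusted p of 0.05, and 4 had an unadjusted p under 0.05. Among all 6643 genes tested, 0.12% were called higher and 0.602% lower in *Elane*/*Mpo*-positive cells, and 913 had an unadjusted p under 0.05. *Srsf2* came nearest, with a log2 fold change of 8.97 ± 2.77 (SE) and an adjusted p of 0.11 in edgeR. The median log2 fold change was 2.56 over the 48 members and 1.85 over all genes, so the scale itself was shifted toward *Elane*/*Mpo*-positive cells. Of the largest values, *Srsf1* had 9.58 ± 5.43, followed below *Srsf2* by *Hnrnph2* (8.74 ± 5.22), *Hnrnpa1* (7.86 ± 3.42) and *Snrpd1* (7.75 ± 3.99). The lowest were those of *Sf3b2* (-2.22 ± 1.73), *Sf3b6* (-1.74 ± 2.11), *Hnrnpk* (-1.26 ± 1.34), *Srsf5* (-1.18 ± 1.59) and *Hnrnpc* (-1.08 ± 1.57). All 5 were positive in DESeq2 with 7 captures, at 0.60 to 1.57, where the median over all genes was 2.66. In edgeR with 7 captures *Sf3b2* (-0.65) and *Srsf5* (-0.40) stayed negative. On the sums of the 3 captures, DESeq2 called 12 of 48 members higher and 0 lower, where 24.8% of all genes were higher and 7.3% lower. CPM was higher in 3 of 3 captures for 30 of 48 members, where 38.3% of all genes were, and lower in 3 of 3 for 1, where 7.68% were.

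With the 7 captures that held at least 1 cell of each class, a choice made after the data were seen, edgeR called 6 of 46 tested members higher and 0 lower in *Elane*/*Mpo*-positive cells. Of all 4376 genes, 6.9% were called higher and 1.83% lower. The 6 genes were *Srsf1* (log2 fold change 10.60 ± 3.37, adjusted p = 0.031), *Snrpd1* (8.64 ± 2.51, adjusted p = 0.0172), *Snrpa1* (8.26 ± 2.75, adjusted p = 0.0396), *Hnrnpa1* (8.04 ± 2.5, adjusted p = 0.0272), *Srsf10* (7.96 ± 2.55, adjusted p = 0.0329) and *Snrpb2* (7.54 ± 2.61, adjusted p = 0.0477). Their *Il1b*-positive sums were mostly at or near 0, so these fold changes depend on edgeR's prior and are not bounds. The calls also rested on single captures. Leaving out a capture gave 0 to 3 calls, with 0 without 31, 1 without 17c, 1 without 40, 2 without 32, 2 without 9c and 3 without 28 or 38. Calls over all genes fell too. They went from 302 of 4376 genes called higher to between 114 of 4373 without 31 and 214 of 4651 without 38. DESeq2 called 35 of 46 members higher on the same sums and 49.6% of all genes, with 0 members and 6.97% of genes lower. CPM was higher in 7 of 7 captures for 20 of 46 members, where 17% of all genes were, and lower in 7 of 7 for 0, where 1.42% were. Whether the class difference changed with age was tested with an interaction term in edgeR in the 3 and in the 7 captures. Among the 3 captures only 9c was at P60, so that age had no replicate and the term could not decide the question there. Its median log2 fold change in these captures was -0.36 over the members and 0.53 over all genes. In the 7 captures the median of this term was -2.88 over the members and -1.65 over all genes, and 6 of 46 members were positive. A negative value is a lower *Elane*/*Mpo*-positive over *Il1b*-positive fold change at P120. There 0 of 46 members passed, with 0 at an unadjusted p under 0.05. Of all 4376 genes 0 passed as well, so this does not show that the class difference was alike at both ages.

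**Figure D4:**
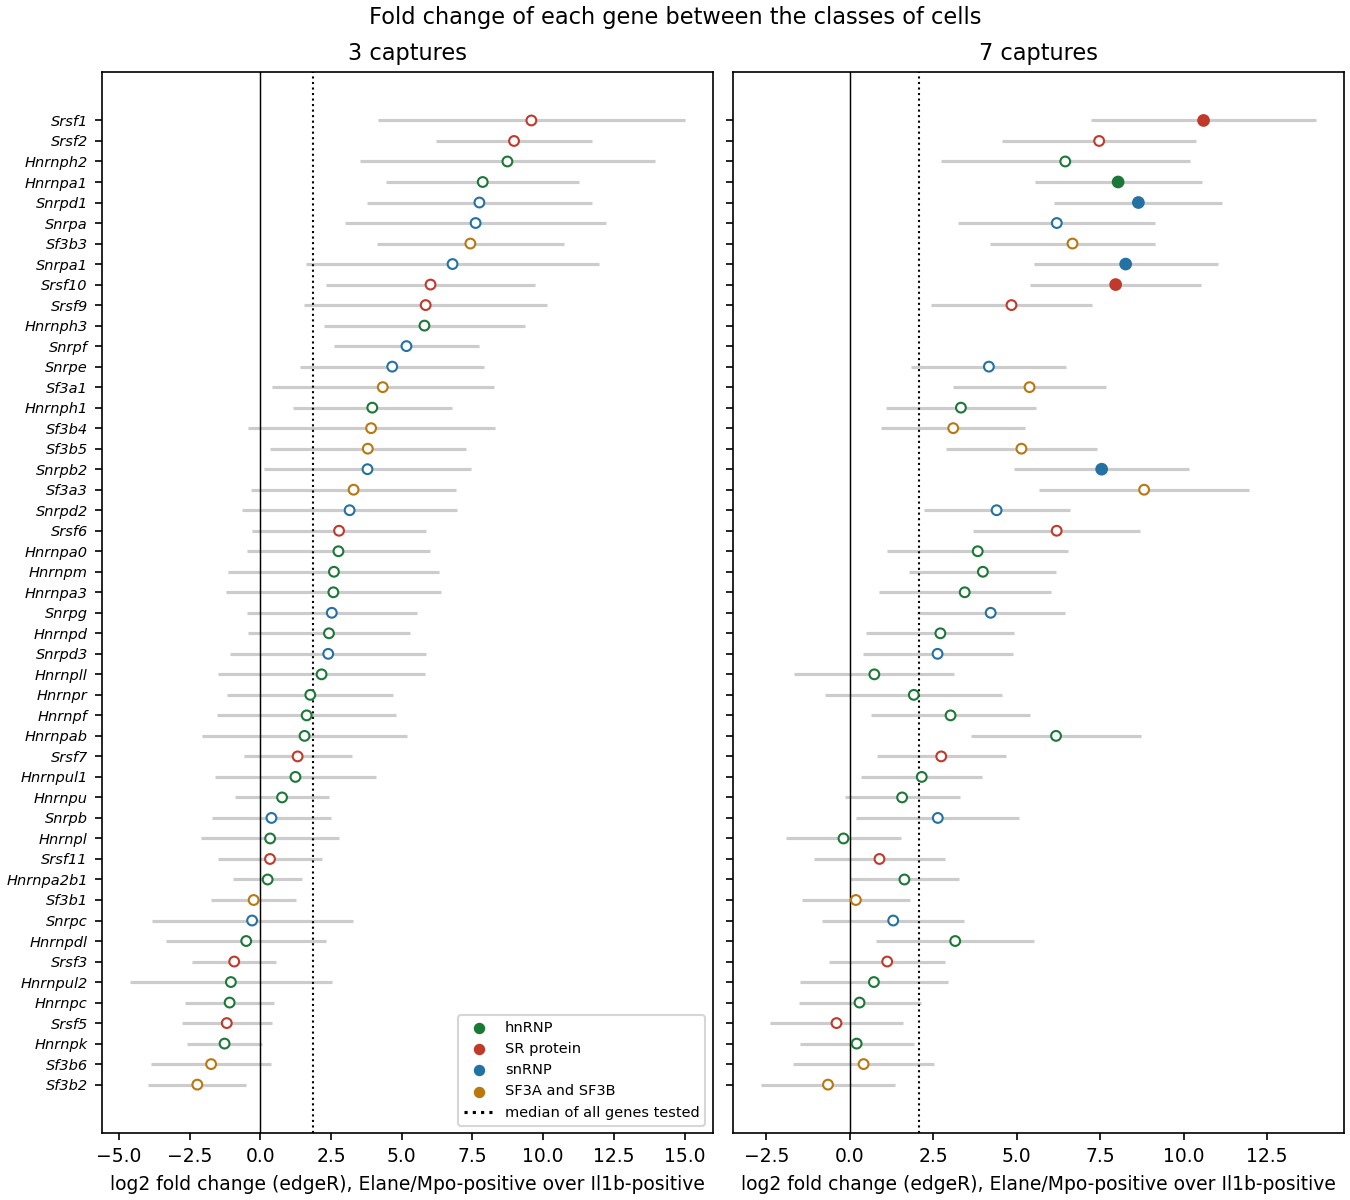
log2 fold changes with their SE of *Elane*/*Mpo*-positive over *Il1b*-positive cells from edgeR, for the 48 members tested in 3 captures (left) and the 46 tested in 7 captures (right), coloured by family. Filled points passed an adjusted p of 0.05 (0 on the left, 6 on the right), and the dotted line marks the median of all genes tested, 1.85 and 2.07.

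Related splicing genes outside the name rule were read the same way. They were 91 genes in 7 lists, written with earlier results of these data known. In edgeR 0 of 83 tested passed in 3 captures, where 0.12% of all genes were called higher and 0.602% lower. In 7 captures 1 of 72 passed, a smaller share than the 6.9% of all genes called higher. It was *Prpf31*, a U4/U6 snRNP protein (9.98 ± 3.21, adjusted p = 0.033). In 3 captures the median log2 fold change of a list ran from -0.26 for the 7 SR protein kinases to 6.63 for Sm ring assembly (5 tested). In 7 captures it ran from 1.04 for the kinases to 5.15 for branch point recognition. The medians of all genes were 1.85 and 2.07. The kinase *Clk1*, which phosphorylates SR proteins, was seen in 88.7% of *Elane*/*Mpo*-positive and 75% of *Il1b*-positive cells. *Son*, a large speckle protein, was seen in 96.5 and 63.8%, and the helicase *Ddx5* in 85.1 and 73.7%. These genes, like *Srsf5* and *Sf3b1*, were seen in most cells of both classes. Others parted the classes as many members did, among them *Lsm6* (70.5 and 5.24%), *Dhx15* (63.9 and 5.02%) and the kinase *Srpk1* (63.5 and 9.40%).

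The ages were compared over captures with at least 3 cells, 6 at P60 and 4 at P120. The 52 genes took 0.896, 0.348, 0.569, 0.416, 0.438 and 0.620% of the reads in P60 captures 9c, 19c, 20c, 21c, 31 and 40. In P120 captures 28, 32, 36 and 38 they took 1.05, 0.980, 0.604 and 0.718%. The means were 0.548 ± 0.198% (SD) and 0.839 ± 0.212% (SD) over these captures, and the ages overlapped. Within the sequencing runs that held both ages, with 2 captures at P60 and 4 at P120, the difference was 0.310 percentage points, against 0.291 over all. In *Il1b*-positive cells alone, a setting added later, it was 0.197 over 5 captures at P60 and 4 at P120. Capture 40, with 1 such cell, was left out there. The number of genes detected at 50000 reads averaged 11.7 ± 5.76 (SD) over the P60 and 13.2 ± 7.05 (SD) over the P120 captures, and its difference of 1.55 genes turned to -2.71 within the runs that held both ages. It also turned to -0.959 without capture 28. The share of *Elane*/*Mpo*-positive cells, which moves with these values, was 18.8% of 80 cells at P60 and 27.4% of 84 at P120.

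**Figure D5:**
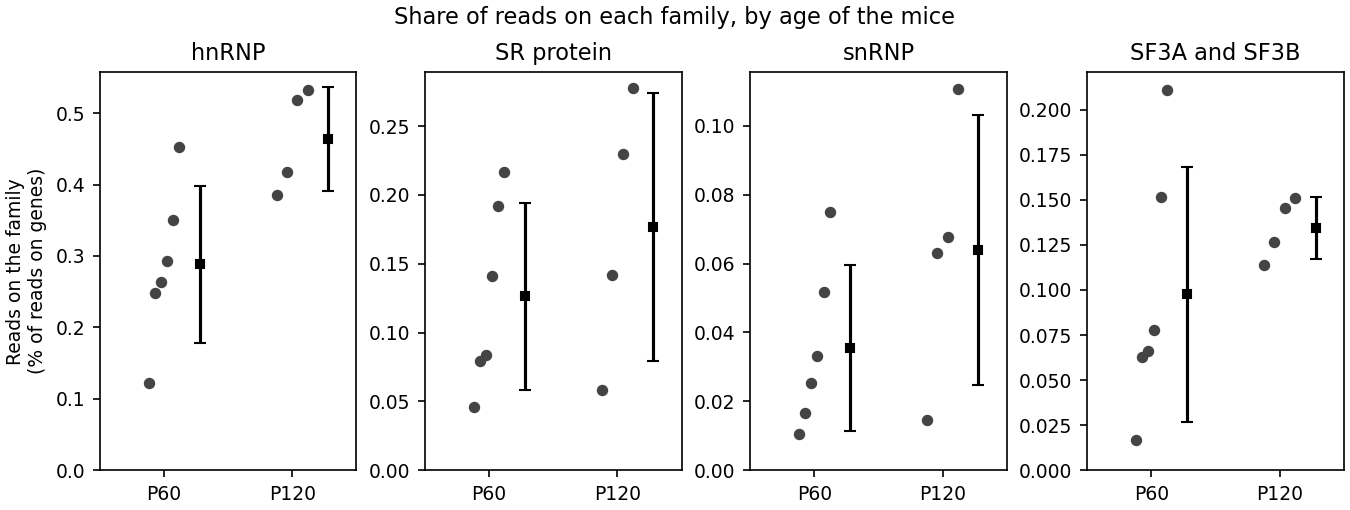
Share of reads on each gene family (percent of reads on genes, a separate axis for each family) in the 6 captures at P60 and 4 at P120 with at least 3 cells, with the mean and SD beside the points as squares and bars. The ages overlap in all 4 families.

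Between the ages edgeR called 0 of 49 tested members, with 0 at an unadjusted p under 0.05. Of all 8551 genes it called 0.0234% in each direction, with 371 at an unadjusted p under 0.05. DESeq2 also called 0 members, with 6 of all 8551 genes higher and 11 lower at P120. The median log2 fold change of P120 over P60 was 0.47 over the members and 0.22 over all genes. The largest value was that of *Hnrnpll*, a regulator of CD45 splicing in lymphocytes (2.77 ± 1.65). It had 34.3, 158, 0, 1.50, 15.2 and 22.5 CPM in the P60 captures and 31.6, 15.8, 661 and 48.8 CPM at P120, so 1 capture, 36, set the mean. *Snrpb* (2.61 ± 1.87) had 135, 0, 16.1, 0.428, 16.8 and 76.8 CPM at P60 and 477, 249, 0 and 231 CPM at P120. *Sf3a2* (2.44 ± 2.36) stayed under 21 CPM in every capture. The lowest values were those of *Sf3a1* (-1.55 ± 2.18), *Sf3b5* (-1.52 ± 2.18) and *Hnrnpul2* (-1.32 ± 2.43), whose levels overlapped between the ages. *Sf3a1* was at 378 CPM in capture 21c and at most 93.9 CPM in the other captures. *Hnrnpll* and *Sf3a2* turned negative without capture 36 (-0.84 and -1.14), and *Sf3a1* turned positive without 21c (1.25).

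Single captures also differed from each other. Over the captures of both ages, the share of cells with a read at 50000 reads ranged most for *Sf3b1*, from 9.80% in 21c to 96.9% in 9c, both at P60. Next came *Srsf3*, from 5.83% in 36 to 72.6% in 9c, *Hnrnpk*, from 16.3% in 21c to 79.4% in 28, *Srsf11*, from 12.8% in 36 to 75.6% in 28, and *Hnrnpl*, from 22.9% in 21c to 82.8% in 40, both at P60. *Srsf5* was seen in 43% of the cells in 21c, its lowest capture, and in 90.3% in 36, its highest. Captures 19c, 20c, 21c and 36 held no *Elane*/*Mpo*-positive cell, and in these the number of the 52 genes detected at 50000 reads was 6.75, 6.09, 7.44 and 5.08 per cell. In the other 6 captures of the age comparison it was 9.91 to 20.7.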

How the data were processed

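Raw read counts per gene and cell were used as deposited by the authors, who aligned reads with STAR to GRCm38 (mm10 in the submitters' processing notes) with the vM11 annotation and removed endothelial cells and outliers. The table holds 48709 genes and 92 spike-in sequences in 211 cells, with no identical columns. The authors also deposited a normalized GFP intensity score and mapped read counts, which were not used. Symbols, exon lengths and overlaps came from GENCODE vM21 (same build), matching 48349 identifiers. Of the 52 members, 27 overlap another annotated gene and 21 an antisense gene, and since no strand setting is stated in the sources used here, such reads cannot be told apart.

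Cells under 50000 reads on genes (47) were left out. Detection at 50000 reads is the hypergeometric chance of keeping at least 1 read, averaged over cells. Sums of counts over the cells of a capture, or of each class within it (capture as a block), were tested over all genes with edgeR 4.0.16 (TMM, filterByExpr, quasi-likelihood, Benjamini-Hochberg at 0.05) in R 4.3.3, with DESeq2 1.42.0 as the other tool. The SE printed with an edgeR log2 fold change is its absolute value divided by the square root of its F statistic, and not an edgeR output. The edgeR steps were tested on simulated counts. Python 3.11.15, numpy 2.4.6, pandas 2.3.3, scipy 1.17.1 and matplotlib 3.10.9 were used. Alternatives changed the normalization, filter, depth, class rule, block, captures and cells.

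The members, related lists and marker lists were chosen with earlier results of these data known. Genes named are the 3 with most reads per kilobase in each family, the 5 largest and 5 smallest log2 fold changes between classes, the 3 largest and smallest between ages, the 5 widest ranges over captures, and genes that define the classes. Other genes were named after their values were seen. No doublet caller was run. Captures pool mice, and the labels and methods differ on how many cochleae. Age p-values rest on the spread between captures, and class p-values on the spread of the within-capture class difference. Both use variances moderated with information from all genes, so they do not measure the spread of that gene alone.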

Additional observations from a re-analysis of the deposited data

Results flagged for a closer look

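Among 28 groups of capture values, 1 held a value that stood far from the others. In *Il1b*-positive cells the snRNP genes took 0.0668% of the reads in capture 28, where the other 6 captures lay at or under 0.0265%. The gap to the nearest capture was 0.603 of the whole range. About 1 in 20 such groups would hold a flagged value by chance. *Snrpb* reached 543 CPM in these *Il1b*-positive cells of capture 28, its highest level in that class.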

How the results depend on the processing

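The class differences in summed share and in genes detected kept their direction under every alternative run, and without each of the 3 captures in turn they ranged from 0.410 to 0.593 percentage points and from 16.8 to 23 genes. The share difference between the ages ranged from 0.220 to 0.369 points without each capture, and the detection difference from -0.959 to 4.26 genes, with -2.71 in the sequencing runs that held both ages. Without each capture the calls stayed at 0 in the age comparison and in the 3-capture class comparison. They ranged from 0 to 3 in the 7-capture one, with 114 to 214 of all genes called higher. Members called between classes were 12 with DESeq2 (24.8% of all genes called higher), 1 with library size only (0.316% of all genes), and with 7 captures 6 in edgeR (6.9%), 6 on thinned counts (11.9%) and 35 in DESeq2 (49.6%). Of the 6 called on thinned counts, 3 were among the 6 called in edgeR on all reads: *Hnrnpa1*, *Snrpb2* and *Srsf1*. Without the replicate block, which pairs the classes of a capture, 0 members were called, *Snrpb* turned to -0.20 and *Sf3b1* to 0.035.

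Among single genes, log2 fold changes between classes reversed as follows. With 7 captures in edgeR they were 0.29 for *Hnrnpc*, 0.21 for *Hnrnpk*, 0.18 for *Sf3b1* and 0.42 for *Sf3b6*. With thinned counts they were 0.69, 0.93 and 0.41 for *Hnrnpc*, *Hnrnpk* and *Sf3b1*. With DESeq2 they were 1.55 for *Hnrnpc*, 1.39 for *Hnrnpk*, 0.75 for *Srsf5*, 1.09 for *Sf3b1*, 1.57 for *Sf3b6* and 0.60 for *Sf3b2*. The median over all genes in that DESeq2 fit of 7 captures was 2.66. In 3 captures, *Hnrnpa2b1* was -0.019 with DESeq2 and -0.020 with RLE factors, *Sf3b1* 0.68 with library size only, and, with classes set at 200 CPM, *Sf3b1* 0.070 and *Sf3b6* 0.20. Without a capture, *Snrpb* ranged from -0.88 to 1.47 and *Sf3b1* from -0.96 to 0.49. Between the ages, *Sf3a1* and *Sf3b5* were 0.49 and 0.50 with the sequencing run as a covariate, and *Hnrnpul2* was 0.48 on thinned counts and 2.04 in *Il1b*-positive cells alone. Without a capture the ranges were -0.84 to 4.98 for *Hnrnpll*, -1.14 to 3.65 for *Sf3a2*, -2.64 to 1.25 for *Sf3a1* and -1.79 to 0.55 for *Sf3b5*. The cause of these reversals was not tested.

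The main limits are the 3 captures in the planned class comparison and the few cells that hold each gene's reads in *Il1b*-positive cells. Reads carry no molecular identifiers, so a high count need not mean many molecules. A gene without a read at 50000 reads is not shown to be absent from a cell.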

Other observations

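Cells positive for both *Elane* or *Mpo* and *Il1b* lay between the classes. In these 20 cells from 6 captures the 52 genes took 0.858% of the summed reads, and 23.2 of them were detected per cell at 50000 reads. In the 28 cells with neither, from 9 captures, the values were 0.551% and 11.1. The corresponding pooled values were 1.11% and 28.1 for *Elane*/*Mpo*-positive and 0.520% and 7.25 for *Il1b*-positive cells. The leading gene held a median of 28.6% of the reads on the 52 genes in cells with both and 41.6% in cells with neither. These groups were pooled over captures and were not tested.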
